A study of Bos taurus with 30 samples.

Results

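The amino acid transporter genes described here are 10 genes of the solute carrier families, SLC1A1, SLC1A4, SLC1A5, SLC3A2, SLC7A1, SLC7A2, SLC7A5, SLC7A8, SLC38A1 and SLC43A2, out of the 27607 bovine genes that were counted. They were chosen by name, and each of the 10 names matched 1 gene identifier in the names that the authors' comparison tables give for 17468 genes. RNA was sequenced from bovine endometrial epithelial and stromal cells that shared a microfluidic device, with the epithelial cells in the upper chamber and the stromal cells on the other side of a porous membrane in the lower chamber. Medium flowed through the device for 72 hours. In the glucose experiment the medium held 5 or 50 mM glucose, with 12 libraries. In the insulin experiment it held 5 mM glucose and either the vehicle, acetic acid in buffered saline, or 1 or 10 ng/mL insulin, with 18 libraries. Each of the 10 groups, a cell type under a treatment, had 3 biological replicates. All groups had RPMI medium with fetal bovine serum. All cells were primary cells of cows that were early in the luteal phase and not pregnant, expanded in flasks and enriched by sieving and by plating time, so that each culture may hold cells of the other type. The comparison of 50 with 5 mM glucose asked what a high glucose supply changes in each cell type, and the insulin groups asked the same for low and high insulin.

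Amino acid transporters carry amino acids across the plasma membrane. Some couple uptake to the sodium gradient, some exchange an amino acid outside the cell for another inside, and others do neither. SLC3A2 is the heavy chain shared by several exchangers and takes light chains such as SLC7A5 and SLC7A8 to the membrane. In ruminants the endometrium delivers amino acids to the uterine fluid, on which the embryo lives before it attaches, and uptake of leucine, arginine and glutamine feeds growth signalling in the embryo and in the endometrium.

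The glucose libraries had total counts of 13493503 to 16647701 and the insulin libraries had 8826470 to 13214728. Levels are given as CPM, the counts scaled to the library total, and since they were not scaled to transcript length they were compared between samples and not between genes. Counts of pairs and of groups that did not overlap are on this scale. A count of 0 allows up to 3 counts, or 0.18 to 0.222 CPM in the glucose and 0.227 to 0.34 CPM in the insulin libraries, for counting error only. Fold changes are on the log2 scale after TMM normalization, which corrects for differences in composition between libraries. A gene was called when its p from the quasi-likelihood test in edgeR, after Benjamini-Hochberg adjustment over all genes tested, fell below 0.05 and the log2 fold change exceeded 0.1 in size. The replicate number was a block in the test. The standard error (SE) printed with a fold change was derived as its size divided by the square root of the test's F statistic. A panel of 10 epithelial markers, keratins and cadherin among them, added up to 5620.2 to 11411 CPM in the epithelial libraries and only 0.965 to 237 CPM in the stromal libraries of the insulin experiment. In the stromal libraries of the glucose experiment the sum was 75.3 to 4125 CPM. The highest sum was that of stromal replicate 3 at 50 mM glucose, where the median epithelial marker reached 76.7% of its mean in epithelial cells. The epithelial library of replicate 2 at 5 mM glucose also stood apart, with an epithelial marker sum of 11411 CPM against 5729.5 to 6804 CPM in the other epithelial glucose libraries. In epithelial cells the median of 10 stromal markers was 0.866 to 12.5% of its stromal mean, and 5 smooth muscle markers summed to 392 to 3232 CPM in stromal and 17.9 to 315 CPM in epithelial libraries. The 3 leukocyte markers measured summed to at most 16.8 CPM in any library. Of the 4 endothelial markers measured, VWF reached 76.1 CPM, and CDH5, PECAM1 and TEK stayed at or under 2.83 CPM.

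Transporters were called between the cell types and, with all replicates in edgeR, in 0 of the 8 comparisons of treatments. SLC7A8, SLC1A1 and SLC7A2 were called higher in epithelial cells in each of the 5 comparisons of the cell types. Their calls at 50 mM glucose were lost in some other fits, as given below for SLC7A8. For SLC7A2 so were the calls at 5 mM glucose and with vehicle. SLC3A2, SLC7A5, SLC7A1 and SLC1A4 were lower in epithelial than in stromal cells in the 3 comparisons of the insulin experiment and were not called in the glucose experiment. SLC43A2 was called higher in epithelial cells at 50 mM glucose, a call lost in some other fits, and lower in the 3 insulin comparisons. SLC1A5 and SLC38A1 were not called in any of the 5. At 5 mM glucose 3 of the 10 transporters were called, beside 21.1% of the 13927 genes tested, and at 50 mM glucose 4, beside 17.3% of 13892. All of these were higher in epithelial cells, where 10.5% and 6.39% of all genes were called higher and 10.6% and 10.9% lower. With insulin or its vehicle, 8 of 10 were called in the vehicle group, at 1 ng/mL and at 10 ng/mL, beside 55.2%, 58.9% and 54.4% of all genes tested. Of these 8, 3 were higher in epithelial cells and 5 lower, where 27.8%, 29.6% and 27.1% of all genes were called higher and 27.3%, 29.3% and 27.3% lower. The levels of the cell types did not overlap for 3 and 1 of the 10 transporters at 5 and 50 mM glucose, beside 44.5% and 35.2% of all genes, and for 8, 7 and 8 in the insulin experiment, beside 65.5%, 67.6% and 65.9%. On CPM scaled by TMM these counts of transporters were 2 and 1, and 8, 7 and 8. The 2 experiments were counted and fitted separately, so a difference between them was not tested. In bulk RNA, fewer cells of a type and less RNA per cell cannot be told apart.

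**Figure D1:**
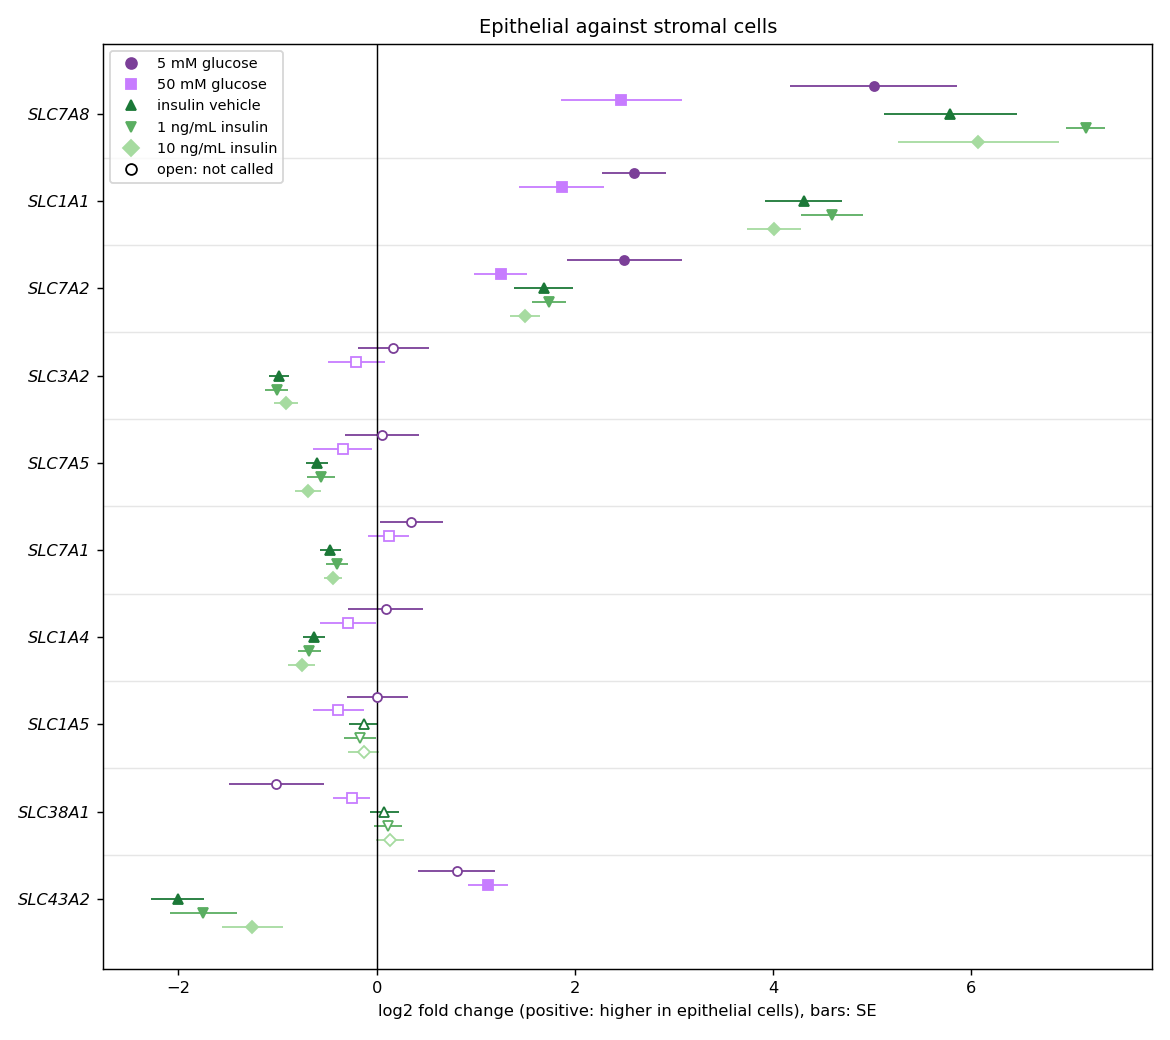
Log2 fold change between epithelial and stromal cells (x axis, positive when higher in epithelial cells) for the 10 transporters (rows) in the 5 comparisons. Bars show 1 SE as derived from the F statistic of the test, and open symbols mark comparisons that were not called. SLC7A8 lies at 2.47 to 7.15, SLC1A1 at 1.87 to 4.59 and SLC7A2 at 1.25 to 2.50, all to the right of 0, while SLC43A2 changes sides between the glucose (0.81 and 1.12) and insulin experiments (-2.01 to -1.25).

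SLC7A8 (ENSBTAG00000007415), a light chain of SLC3A2 that exchanges neutral amino acids and sits in the basolateral membrane of epithelia, had the largest fold changes of the 10. In epithelial cells, replicates 1, 2 and 3 had levels of 104, 105 and 249 CPM at 5 mM glucose and 128, 121 and 290.3 CPM at 50 mM. In stromal cells they had 11.4, 0.943 and 4.51 CPM and 18.7, 6.82 and 141 CPM. The groups were apart at 5 mM, whereas at 50 mM stromal replicate 3 lay within the epithelial range. The log2 fold change, with its standard error (SE), was 5.02 (SE 0.843, adjusted p = 0.0119, edgeR) at 5 mM and 2.47 (SE 0.608, adjusted p = 0.0492) at 50 mM, or 3.25 at 50 mM without replicate 3. The call at 50 mM was lost with RLE size factors (2.46, adjusted p = 0.0504, edgeR), with all libraries of the experiment in 1 fit (2.24, adjusted p = 0.106), without the replicate block (1.64, adjusted p = 0.332) and without replicate 1 (2.47, adjusted p = 0.286). In the insulin experiment the epithelial level was 73.5 ± 15.7 CPM (SD, n = 3) with vehicle, 71.8 ± 12.7 CPM (SD, n = 3) at 1 ng/mL and 78.9 ± 11.3 CPM (SD, n = 3) at 10 ng/mL. The stromal libraries held 3, 41 and 3 reads of the gene with vehicle, 5, 7 and 4 at 1 ng/mL and 38, 0 and 6 at 10 ng/mL, which is 0.262, 3.71 and 0.325 CPM, 0.463, 0.594 and 0.323 CPM and 2.88, 0 and 0.576 CPM. Every epithelial library was above every stromal library. The log2 fold changes were 5.79 (SE 0.672), 7.15 (SE 0.194) and 6.07 (SE 0.811), with adjusted p-values of 0.00296, 2.66e-05 and 0.00449 in edgeR. These SEs were derived from the F statistic and do not give the counting error of the few stromal reads, 4 to 7 per library at 1 ng/mL.

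The stromal level of SLC7A8 stood beside that of the epithelial markers. In the 15 stromal libraries it was highest where the markers were highest, at 84.7% of its epithelial mean in replicate 3 at 50 mM, where the median marker was at 76.7%. In replicate 1 it was at 6.86% with markers at 7.09% at 5 mM, and at 11.3% with markers at 13.8% at 50 mM. In replicate 2 at 50 mM it was at 4.10% with markers at 5.94%. In the insulin experiment 2 stromal libraries had markers above 1%, the vehicle library of replicate 2 with 3.46% and the 10 ng/mL library of replicate 1 with 3.61%. They also had the highest SLC7A8 of that experiment, at 4.97% and 3.85% of the epithelial mean. The other 7 had at most 0.794%, with markers at 0.00643 to 0.349%. The value of 0.794% was that of the library with the lowest markers, at 0.00643%. Stromal replicates 2 and 3 at 5 mM had markers at 0.0694% and 0.106% and SLC7A8 at 0.567% and 2.71%. The part of epithelial RNA in these stromal levels was not tested.

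SLC1A1 (ENSBTAG00000019125), a sodium-coupled carrier that takes up glutamate and aspartate, was the next in size of the fold change. Its epithelial levels were 127, 95.97 and 166 CPM at 5 mM and 115, 122 and 157 CPM at 50 mM glucose, and its stromal levels were 18.6, 11.7 and 26.8 CPM and 18.0, 19.1 and 97.96 CPM. The cell types did not overlap at either concentration, although stromal replicate 3 at 50 mM was above the epithelial library of replicate 2 at 5 mM. The log2 fold change was 2.60 (SE 0.324, adjusted p = 0.00631, edgeR) at 5 mM and 1.87 (SE 0.432, adjusted p = 0.0431) at 50 mM. In the insulin experiment SLC1A1 was at 205 to 241 CPM in the 9 epithelial libraries and at 5.93 to 20.1 CPM in the 9 stromal libraries, with log2 fold changes of 4.31, 4.59 and 4.01 (SEs 0.389, 0.314 and 0.273) and adjusted p-values of 0.00174, 0.000222 and 0.00140. Its stromal levels were 6.73, 20.1 and 7.69 CPM with vehicle, 5.93, 16.4 and 6.29 CPM at 1 ng/mL and 13.9, 18.6 and 7.40 CPM at 10 ng/mL. Replicate 2 was the highest at each dose, also at 1 and 10 ng/mL, where the epithelial markers of that replicate were at 0.00643% and 0.011% of the epithelial mean. SLC1A1 there was at 7.40% and 8.41% of its epithelial mean. In stromal replicate 3 at 50 mM glucose SLC1A1 was at 75.0% of its epithelial mean, with the median marker at 76.7%. The other stromal glucose libraries had SLC1A1 at 8.95 to 20.5%, with markers at 0.0694 to 13.8%. The part of epithelial RNA in these stromal levels was not tested.

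SLC7A2 (ENSBTAG00000010085), a carrier of arginine and other cationic amino acids, was higher in epithelial cells and had the widest range of the 10 over the epithelial glucose libraries, 17.3-fold. In epithelial cells it was at 352, 20.4 and 76.8 CPM at 5 mM and 252, 47.0 and 95.7 CPM at 50 mM glucose, so that the libraries of replicate 1 were the highest and those of replicate 2 the lowest. In stromal cells it was at 67.9, 6.92 and 3.84 CPM and 67.5, 14.3 and 63.4 CPM, where replicate 1 was again the highest. The cell types overlapped, since stromal replicate 1 was above epithelial replicate 2 at both concentrations. Epithelial cells were higher in 3 of 3 pairs of the same replicate number, with log2 fold changes of 2.50 (SE 0.579, adjusted p = 0.0298, edgeR) and 1.25 (SE 0.270, adjusted p = 0.0370). Without the replicate block the gene was not called at 5 mM (log2 fold change 2.24, adjusted p = 0.272) or at 50 mM (log2 fold change 1.28, adjusted p = 0.333). The call at 5 mM was also lost without replicate 3. In the insulin libraries the epithelial levels were 20.9 to 32.5 CPM and the stromal levels 5.85 to 10.4 CPM, which did not overlap, with log2 fold changes of 1.68, 1.74 and 1.498 (adjusted p = 0.00932, 0.000695 and 0.00252, edgeR). The call with vehicle was lost without replicate 1. The stromal level in the insulin libraries was 22.7 to 40.3% of the epithelial mean, with epithelial markers at 0.00643 to 3.61%. In the stromal glucose libraries, replicates 1, 2 and 3 were at 48.3%, 4.92% and 2.73% at 5 mM, with markers at 7.09%, 0.0694% and 0.106%. At 50 mM they were at 48.0%, 10.2% and 45.1%, with markers at 13.8%, 5.94% and 76.7%. The part of epithelial RNA in these stromal levels was not tested.

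**Figure D2:**
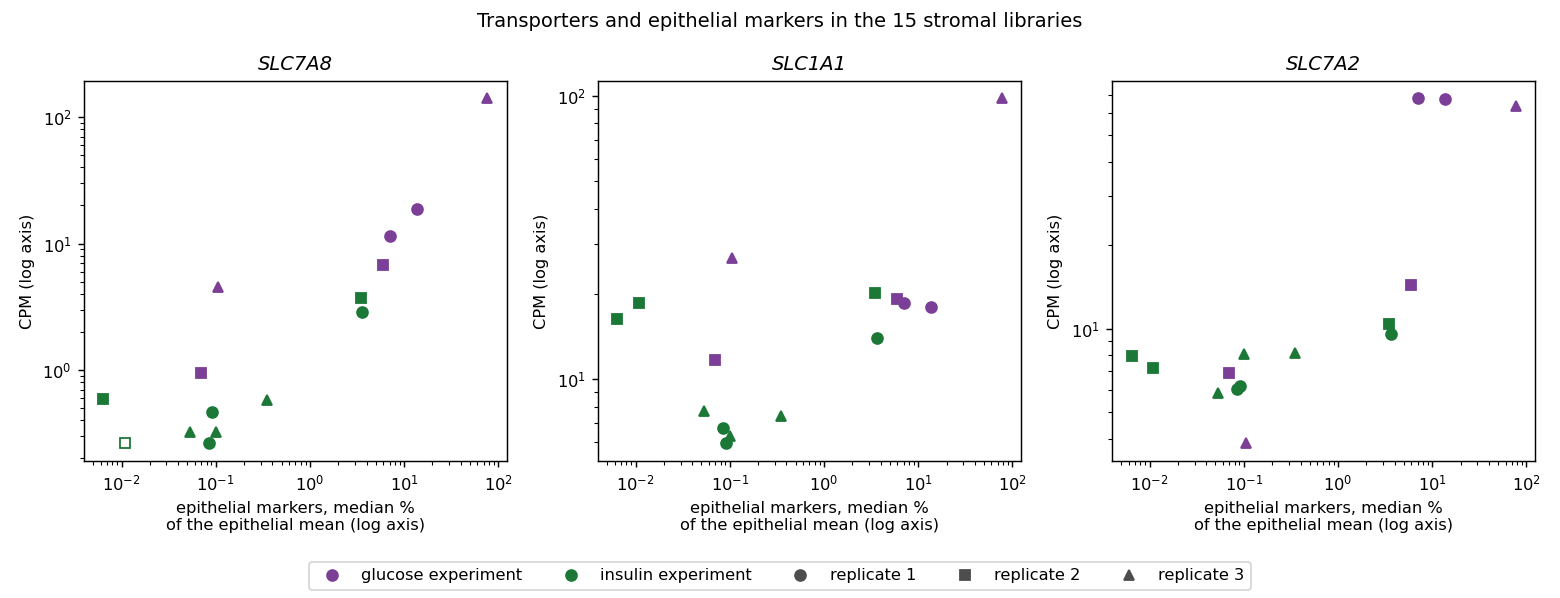
Level of SLC7A8, SLC1A1 and SLC7A2 in CPM (y axes, log scale) against the median of 10 epithelial markers as a percent of their epithelial mean (x axes, log scale) in the 15 stromal libraries, with an open symbol at the limit of 3 counts for a library with 0 reads. SLC7A8 spans 0 to 141 CPM and SLC1A1 5.93 to 97.96 CPM, and both lie highest in the library with markers at 76.7%. SLC1A1 of the insulin replicate 2 lies at 16.4 to 20.1 CPM with markers between 0.00643% and 3.46%.

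SLC3A2 (ENSBTAG00000013240), the shared heavy chain, was higher in stromal cells in the insulin experiment. Epithelial levels were 126, 114 and 122 CPM with vehicle, 137, 109 and 124 CPM at 1 ng/mL and 137, 116 and 130.03 CPM at 10 ng/mL. Stromal levels were 239, 219.7 and 219 CPM, 229, 233 and 223 CPM and 225, 219 and 222 CPM. Every stromal library was above every epithelial library, and the 9 stromal libraries spanned 1.09-fold from the lowest to the highest. The log2 fold changes were -0.99 (SE 0.104), -1.01 (SE 0.116) and -0.91 (SE 0.122), with adjusted p-values of 0.00242, 0.00114 and 0.00451 in edgeR. In the glucose experiment the stromal levels were 76.6 to 164 CPM and the epithelial levels 97.3 to 171 CPM, which overlapped, and the log2 fold changes were 0.17 (adjusted p = 0.789) at 5 mM and -0.20 (adjusted p = 0.661) at 50 mM.

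SLC7A5 (ENSBTAG00000006731), the light chain that exchanges leucine and other large neutral amino acids, followed the same order as its heavy chain in the insulin experiment. Its epithelial levels were 36.1 to 48.3 CPM and its stromal levels 50.1 to 69.6 CPM, without overlap. The log2 fold changes were -0.60, -0.56 and -0.69 (SEs 0.110, 0.141 and 0.132), with adjusted p-values of 0.0101, 0.0185 and 0.0119 in edgeR. The calls at 1 and 10 ng/mL were lost without replicate 2 and without replicate 3. SLC7A8, the other light chain among the 10, had the opposite order. In the glucose experiment SLC7A5 had epithelial levels of 28.8 to 79.4 CPM and stromal levels of 21.1 to 59.1 CPM, with log2 fold changes of 0.057 and -0.34 that were not called.

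SLC1A4 (ENSBTAG00000007763), an exchanger of alanine, serine, cysteine and threonine, was at 76.8 ± 2.72 CPM (SD, n = 3) in epithelial and 113 ± 2.72 CPM (SD, n = 3) in stromal cells of the vehicle group. Over the insulin doses the epithelial levels were 70.0 to 84.9 CPM and the stromal levels 107 to 129 CPM, which did not overlap. The log2 fold changes were -0.64, -0.68 and -0.76 (SEs 0.111, 0.114 and 0.132), with adjusted p-values of 0.00861, 0.00440 and 0.00915 in edgeR. SLC7A1 (ENSBTAG00000018577), which like SLC7A2 carries arginine and lysine, went the other way from SLC7A2. It was at 73.7 ± 9.36 CPM (SD, n = 3) in epithelial and 96.3 ± 11.8 CPM (SD, n = 3) in stromal cells with vehicle. The stromal library was the higher in 3 of 3 pairs at each insulin dose, but the groups overlapped at 1 and 10 ng/mL, and the log2 fold changes of -0.47, -0.40 and -0.44 were the smallest that were called (SEs 0.101, 0.113 and 0.0929, adjusted p = 0.0166, 0.0274 and 0.0158). Its call with vehicle was lost without any 1 of the 3 replicates, at log2 fold changes of -0.51 to -0.37. Its calls at 1 and 10 ng/mL were lost without replicate 2 and without replicate 3. In the glucose experiment SLC1A4 had log2 fold changes of 0.093 and -0.29 and SLC7A1 had 0.35 and 0.12 at 5 and 50 mM, with adjusted p-values of at least 0.506. Without replicate 3, which takes out the stromal library with the high epithelial markers, 7 transporters were called at 50 mM beside 27.8% of all genes. These were the 4 called with all replicates and SLC1A4 (-0.67), SLC1A5 (-0.73) and SLC7A5 (-0.73), each lower in epithelial cells. Without the replicate block 0 were called at 50 mM, beside 7.83% of all genes, and without replicate 1 also 0, beside 0.0%.

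SLC1A5 (ENSBTAG00000013577), an exchanger of glutamine and other neutral amino acids, and SLC38A1 (ENSBTAG00000000859), a sodium-coupled importer of glutamine, did not pass the test in any of the 5 comparisons. SLC1A5 had epithelial levels of 142 to 178 CPM and stromal levels of 123 to 184 CPM in the insulin experiment, and its log2 fold changes over the 5 comparisons were -0.38 to 0.0071 (adjusted p of at least 0.347). SLC38A1 had epithelial levels of 186 to 225 CPM there and stromal levels of 161 to 193 CPM, with log2 fold changes of 0.076, 0.11 and 0.14 that were not called, although the cell types did not overlap at 10 ng/mL, where they did on CPM scaled by TMM. At 5 mM glucose SLC38A1 was at 197, 32.5 and 144 CPM in epithelial and 215, 143 and 163 CPM in stromal cells. The epithelial library of replicate 2, which stood apart above, was far below the other 5. The log2 fold change was -1.01 (SE 0.476, adjusted p = 0.208, edgeR), or -0.40 without replicate 2.

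SLC43A2 (ENSBTAG00000011482), a sodium-independent carrier of branched-chain amino acids and phenylalanine, was the transporter with opposite calls. In the glucose experiment it was higher in epithelial cells in 3 of 3 pairs at each concentration, with epithelial levels of 11.6, 20.5 and 3.77 CPM and 16.6, 25.05 and 7.79 CPM and stromal levels of 4.69, 9.24 and 2.50 CPM and 5.82, 9.62 and 4.14 CPM at 5 and 50 mM. The groups overlapped, and in both cell types replicate 2 was the highest and replicate 3 the lowest. The log2 fold change was 0.81 (SE 0.389, adjusted p = 0.217, edgeR) at 5 mM and 1.12 (SE 0.202, adjusted p = 0.0236) at 50 mM. The call at 50 mM was lost without replicate 1, without replicate 2 and without the replicate block, and was kept without replicate 3. With insulin or vehicle the epithelial libraries held only 14 to 27 reads of the gene and the stromal libraries 47 to 85. Epithelial levels were 1.80, 1.45 and 1.69 CPM with vehicle, 1.39, 1.23 and 2.49 CPM at 1 ng/mL and 2.34, 1.59 and 2.83 CPM at 10 ng/mL, against stromal levels of 6.21, 7.69 and 5.31 CPM, 4.35, 6.61 and 4.76 CPM and 4.92, 5.44 and 4.52 CPM. Every stromal library was above every epithelial library, and the log2 fold changes were -2.01, -1.75 and -1.25 (SEs 0.269, 0.340 and 0.309), with adjusted p-values of 0.00417, 0.00734 and 0.0250. At 10 ng/mL the call was lost without any 1 of the 3 replicates, at log2 fold changes of -1.46 to -0.96. The stromal range of the insulin experiment lay within that of the glucose experiment, at 4.35 to 7.69 CPM against 2.50 to 9.62 CPM. The epithelial ranges did not meet, at 1.23 to 2.83 CPM against 3.77 to 25.05 CPM.

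**Figure D3:**
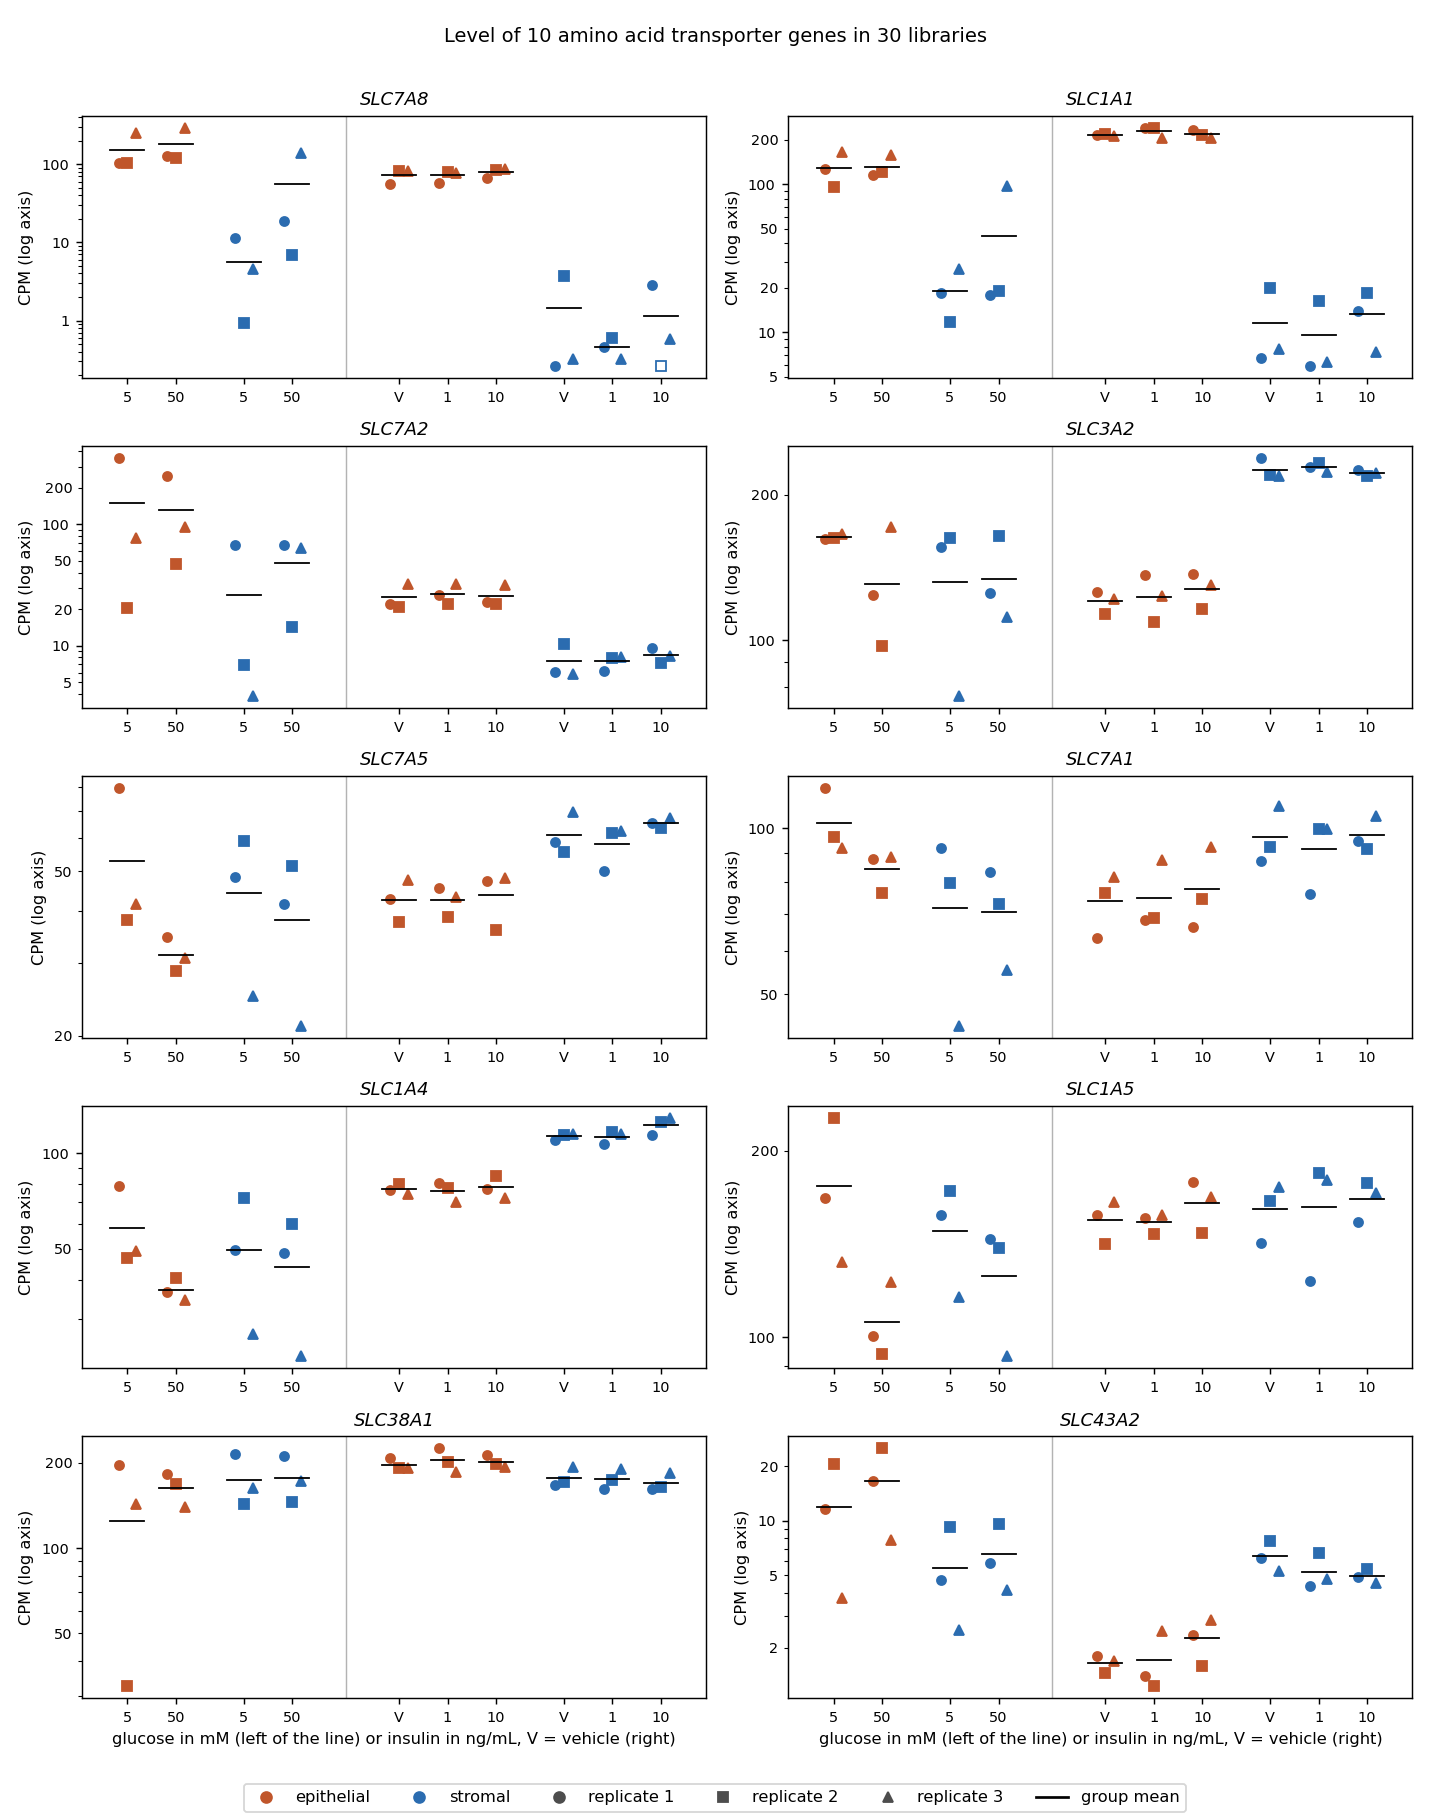
Level of each transporter in CPM (y axes, log scale) in the 30 libraries, with the glucose experiment left and the insulin experiment right of the grey line, symbols for the 3 replicates, black bars for group means and an open symbol at the limit of 3 counts for the library with 0 reads. SLC7A8 and SLC1A1 are separated by cell type apart from stromal replicate 3 at 50 mM glucose. SLC7A8 there (141 CPM) lies within the epithelial range at 50 mM. SLC1A1 there (97.96 CPM) lies below the epithelial libraries at 50 mM and above only epithelial replicate 2 at 5 mM (95.97 CPM). SLC3A2 reaches 219 to 239 CPM in the stromal insulin libraries, and SLC38A1 is at 32.5 CPM in the epithelial library of replicate 2 at 5 mM glucose.

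Of 32 further genes listed as amino acid transporters, 25 were found by name and were analysed here. In the comparisons of the cell types, 22, 21, 20, 20 and 17 of them were tested at 5 mM glucose, 50 mM glucose, vehicle, 1 ng/mL and 10 ng/mL insulin. Of these, 0, 1, 4, 4 and 4 were called higher and 6, 7, 12, 12 and 11 lower in epithelial cells. Of all genes, 10.5%, 6.39%, 27.8%, 29.6% and 27.1% were called higher and 10.6%, 10.9%, 27.3%, 29.3% and 27.3% lower. Their median log2 fold changes were -0.86, -0.51, -0.68, -0.63 and -0.79, beside medians between -0.0074 and 0.032 over all genes, while those of the 10 transporters were 0.26, -0.041, -0.30, -0.29 and -0.29. The 5 genes called lower in all 5 comparisons were SLC38A5, SLC6A17, SLC36A1, SLC7A6 and SLC6A9, and 0 were called higher in all 5. SLC38A5, a glutamine and serine carrier, had a median log2 fold change of -4.54 and was at 2.72 ± 2.23 CPM (SD, n = 3) in epithelial and 56.7 ± 11.6 CPM (SD, n = 3) in stromal cells with vehicle. SLC6A17 had a median of -3.11 and SLC36A1, which exports amino acids from lysosomes with protons, had -1.87. SLC7A6, another light chain of SLC3A2, had a median of -1.82, and SLC6A9, a glycine carrier, had -1.35. The largest positive median was that of SLC1A3, like SLC1A1 a carrier of glutamate and aspartate and named after its values were seen, at 3.68. It was called higher in 4 of the 5 comparisons and was at 2.47 (adjusted p = 0.0566, edgeR) at 5 mM glucose. SLC6A14, a carrier of neutral and cationic amino acids named in the same way, had a median of 2.78 and was called higher in the 3 insulin comparisons. SLC7A11, the light chain that takes up cystine, was named after its values were seen. It was at 7.22 ± 1.00 CPM (SD, n = 3) in epithelial and 40.0 ± 4.85 CPM (SD, n = 3) in stromal cells with vehicle, a log2 fold change of -2.55 (adjusted p = 0.000899, edgeR). Of the light chains measured, SLC7A5, SLC7A6 and SLC7A11 were thus called lower and SLC7A7 and SLC7A8 called higher in epithelial cells in the 3 insulin comparisons. SLC7A7, also named after its values were seen, had log2 fold changes of 1.66, 1.21 and 1.80 there.

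Transcription of SLC3A2, SLC7A5, SLC1A4 and SLC7A11 is known to rise when cells run short of amino acids, through the factor ATF4. A list of 28 genes of this response, ATF4 and its targets in amino acid synthesis, transfer RNA charging and stress, was therefore read beside the transporters, and all 28 were tested in each comparison of the cell types. At 5 and 50 mM glucose 3 of the 28 were called, beside 21.1% and 17.3% of all genes, all lower in epithelial cells. In the insulin groups 5, 5 and 4 were called higher and 8, 9 and 7 lower, together 13, 14 and 11 of the 28 beside 55.2%, 58.9% and 54.4% of all genes, with median log2 fold changes of -0.18, -0.18 and -0.19. ATF4 itself was not called in any of the 5, with a median of -0.25. NUPR1 and ALDH1L2, a mitochondrial folate enzyme, were lower in epithelial cells in all 5, with medians of -4.27 and -1.80, and ATF5 had a median of -1.79. The largest positive medians were those of DDIT4 (1.96), STC2 (0.62) and MTHFD2 (0.56), which were called in the 3 insulin comparisons.

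Between 50 and 5 mM glucose, 0 of the 10 transporters were called in epithelial cells with edgeR or with DESeq2, as were 0.0% of the 13713 genes tested with edgeR. At an unadjusted p under 0.05, 1 of 10 passed, beside 1.55% of all genes. This was SLC7A5, at 79.4, 38.0 and 41.6 CPM at 5 mM and 34.7, 28.8 and 30.8 CPM at 50 mM, a log2 fold change of -0.67 (SE 0.256, adjusted p = 0.804, edgeR). The 3 libraries at 50 mM were below the 3 at 5 mM. The same was true of SLC1A4, SLC1A5 and SLC7A1, which were named after their values were seen, so that 4 of 10 did not overlap, beside 5.54% of all genes. On CPM scaled by TMM the groups of SLC7A1 overlapped and 3 of 10 did not. SLC1A4 was at 78.8, 46.9 and 49.3 CPM and 36.6, 40.4 and 34.4 CPM, a log2 fold change of -0.61 (adjusted p = 0.804). SLC1A5 was at 168, 226 and 132 CPM and 101, 94.1 and 123 CPM, with a log2 fold change of -0.70 that was -0.39 without replicate 2. SLC7A1 was at 118, 96.3 and 91.9 CPM and 87.9, 76.3 and 88.8 CPM (-0.27). These 4 exchange or carry neutral and cationic amino acids, and the heavy chain SLC3A2, at 162, 163 and 166 CPM and 124, 97.3 and 171 CPM, was lower at 50 mM in replicates 1 and 2 and higher in replicate 3. The largest log2 fold change, 0.70 for SLC38A1, rested on its level of 32.5 CPM in replicate 2 at 5 mM, and it was -0.040 without that replicate. The other 4 had log2 fold changes from 0.044 to 0.61.

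Without replicate 2, whose 5 mM library stood apart, 3 transporters were called in the epithelial glucose comparison, beside 1.59% of all genes. These were SLC7A5 (-0.79, adjusted p = 0.00964, edgeR) and SLC1A4 (-0.78, adjusted p = 0.00468), which were lower at 50 mM, and SLC43A2 (0.75, adjusted p = 0.0386), which was higher. These 3 calls rest on leaving out that replicate. Without replicate 1 or without replicate 3, 0 genes of any kind were called, and the values were -0.45 and -0.81 for SLC7A5, -0.40 and -0.67 for SLC1A4, and 0.61 and 0.39 for SLC43A2. Of the 28 amino acid response genes, 25 had a log2 fold change below 0 in epithelial cells with all replicates, with a median of -0.38 beside 0.0091 over all genes. Of these 28, 0 were called with edgeR or DESeq2, 6 passed at an unadjusted p under 0.05, and 13 were lower at 50 mM in 3 of 3 pairs, beside 16.6% of all genes. Without replicate 2, 12 of the 28 were called and all 12 were lower, among them ASNS, PHGDH, PSAT1 and SHMT2 of amino acid synthesis and AARS, GARS, MARS and WARS, which charge transfer RNAs. Of the 21 further transporters tested, 0 were called with or without replicate 2, with a median of 0.095. All 10 stromal markers had log2 fold changes above 0 in this comparison (median 0.88), and their part in the values of the transporters was not tested.

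In stromal cells, 0 of 10 transporters were called between 50 and 5 mM glucose with edgeR, beside 0.0% of 13644 genes, 2 passed at an unadjusted p under 0.05, beside 4.87% of all genes, and 1 was called with DESeq2, beside 1.3%. The 1 gene called with DESeq2 was SLC7A8, with a log2 fold change of 2.76 (SE 0.957, adjusted p = 0.696) with edgeR's quasi-likelihood test and 2.78 (adjusted p = 0.0111) with the Wald test of DESeq2. It was higher at 50 mM in 3 of 3 pairs, as were the sums of the epithelial markers, whose 10 log2 fold changes were all above 0 with a median of 4.59. Their part in the value of SLC7A8 was not tested. Without replicate 3 the value of SLC7A8 was 1.36 and without replicate 1 it was 4.01. The other gene was SLC7A5, lower at 50 mM in 3 of 3 pairs, with 48.5, 59.1 and 25.01 CPM at 5 mM and 41.6, 51.4 and 21.1 CPM at 50 mM and a log2 fold change of -0.29 (SE 0.105, adjusted p = 0.696). The groups overlapped for all 10 transporters, while 6.16% of all genes did not overlap, and the other 8 had log2 fold changes from -0.31 to 1.504. Of the 28 amino acid response genes, 17 had log2 fold changes below 0 in stromal cells, with a median of -0.15 beside -0.028 over all genes. Of these 28, 3 passed at an unadjusted p under 0.05, beside 4.87% of all genes, and 0 were called. In 3 of 3 pairs 10 of the 28 were lower at 50 mM, a count for which the share of all genes was not computed. When the effect of glucose was compared between epithelial and stromal cells, 0 of 10 were called with edgeR, beside 0.0% of 14640 genes, and 0 with DESeq2. SLC7A8 was the gene at an unadjusted p under 0.05, with a difference of -2.52 on the log2 scale (SE 0.930, adjusted p = 0.640), as were 7.53% of all genes. Without replicate 1 the difference was -3.74 and was called, beside 2.08% of all genes. Of the response genes, 21 of 28 had a difference below 0, with a median of -0.31, 2 passed without adjustment and 0 were called, so that a difference between the cell types in their effect of glucose was not shown.

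**Figure D4:**
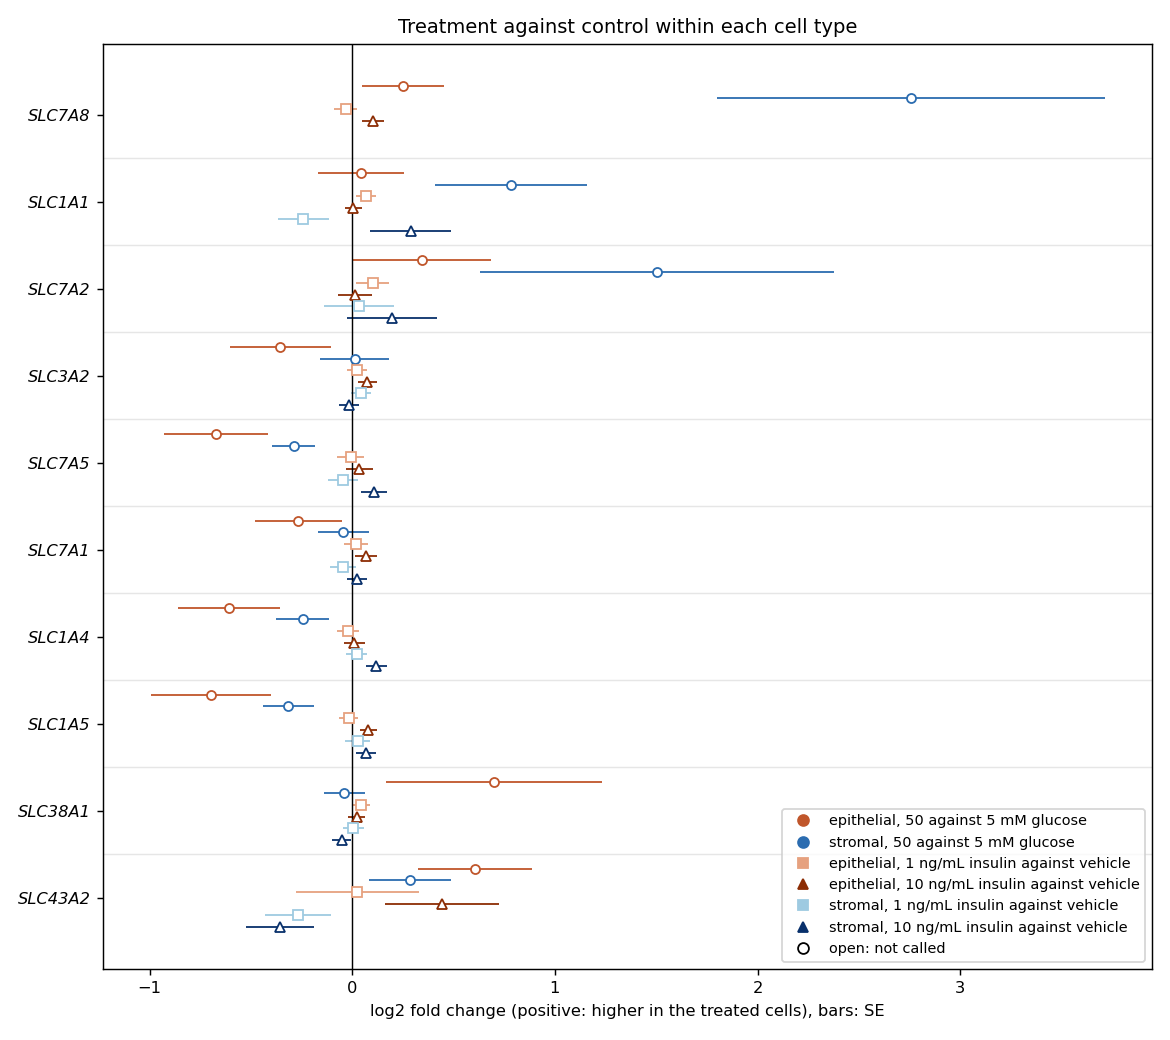
Log2 fold change of treated against control cells (x axis, positive when higher in the treated cells) for the 10 transporters (rows) in 6 comparisons. Bars show 1 SE as derived from the F statistic of the test, and symbols are open throughout, since 0 were called. The insulin comparisons lie between -0.36 and 0.44, and the glucose comparisons reach -0.70 for SLC1A5 in epithelial cells, which was -0.39 without replicate 2, and 2.76 for SLC7A8 in stromal cells.

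Among the epithelial insulin groups, 0 of 10 transporters were called in any of the 3 comparisons, with edgeR or with DESeq2. Beside them 0.0%, 0.124% and 0.0% of all genes were called with edgeR at 1 ng/mL against vehicle, 10 ng/mL against vehicle and 10 against 1 ng/mL. At an unadjusted p under 0.05, 0, 0 and 1 of 10 passed, beside 2.95%, 6.96% and 4.44% of all genes. The log2 fold changes were -0.033 to 0.10 at 1 ng/mL, where SLC7A2 had the largest (0.10, SE 0.0809). At 10 ng/mL they were above 0 for 10 of 10, from 0.0060 to 0.44, and 5 of 10 were higher in 3 of 3 pairs, beside 14.3% of all genes. On CPM scaled by TMM 4 of 10 were higher in 3 of 3 pairs. In the same comparison 8 of the 9 stromal markers tested had log2 fold changes below 0 (median -0.16), of which 6 passed at an unadjusted p under 0.05 and 0 were called. All 5 smooth muscle markers were below 0 (median -0.24) and 1 passed without adjustment. Their part in the values of the transporters was not tested. The largest was that of SLC43A2, 0.44 with a SE of 0.282, on 14 to 27 reads per library, and the other 9 were at most 0.10. Between 10 and 1 ng/mL SLC7A8 passed without adjustment, at 57.2, 79.9 and 78.3 CPM and 65.9, 84.4 and 86.5 CPM, higher in 3 of 3 pairs, with a log2 fold change of 0.14 (SE 0.0530, adjusted p = 0.983, edgeR). The largest in that comparison was again SLC43A2 (0.40). In the 3 comparisons the groups overlapped for all 10 transporters, while 2.23%, 2.86% and 3.0% of all genes did not overlap.

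Of the amino acid response genes, 1 was called in a comparison of treatments. This was CEBPB, a transcription factor that pairs with ATF4, at 14.7 ± 3.65 CPM (SD, n = 3) with vehicle and 23.5 ± 5.62 CPM (SD, n = 3) at 10 ng/mL insulin in epithelial cells, a log2 fold change of 0.67 (SE 0.0970, adjusted p = 0.000344, edgeR). It was the gene called of 27 tested, and 0 were called with DESeq2 or without the replicate block. In that comparison 23 of the 27 tested had log2 fold changes above 0, with a median of 0.061 beside -0.0037 over all genes, and 10 passed at an unadjusted p under 0.05, beside 6.96% of all genes. The stromal and smooth muscle markers named above lay below 0 there, and their part in these values was not tested. In stromal cells at 10 ng/mL 27 of the 28 response genes tested were above 0, with a median of 0.077, 5 passed without adjustment, beside 2.79% of all genes, and 0 were called. In epithelial cells at 1 ng/mL the median was -0.0032 and 0 were called or passed without adjustment. Of the further transporters, 0 were called in the 8 comparisons of treatments with edgeR or DESeq2, and 0 to 3 passed without adjustment.

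In stromal cells, 9 of 10 transporters were tested in the insulin comparisons, because SLC7A8 was too low for the filter on counts. Of these, 0 were called with edgeR or DESeq2 at 1 ng/mL against vehicle, 10 ng/mL against vehicle and 10 against 1 ng/mL, beside 0.0157%, 0.0% and 0.0313% of all genes, and 0, 0 and 2 passed without adjustment, beside 5.16%, 2.79% and 3.91%. The log2 fold changes were -0.27 to 0.044 at 1 ng/mL and -0.36 to 0.29 at 10 ng/mL against vehicle. SLC43A2 had the largest in size in both, -0.27 (SE 0.162) and -0.36 (SE 0.167, unadjusted p = 0.0634, edgeR), and was below the vehicle in 3 of 3 pairs at each dose. Between 10 and 1 ng/mL the 2 genes that passed without adjustment were SLC1A1 and SLC7A5. SLC1A1 was at 5.93, 16.4 and 6.29 CPM and 13.9, 18.6 and 7.40 CPM, higher at 10 ng/mL in 3 of 3 pairs, with a log2 fold change of 0.50 (SE 0.175, adjusted p = 1.00). Replicate 1, with epithelial markers at 0.0902% at 1 ng/mL and 3.61% at 10 ng/mL, had the largest rise, and the part of the markers in it was not tested. SLC7A5 was at 50.1, 62.0 and 62.6 CPM and 65.2, 63.7 and 67.3 CPM, a log2 fold change of 0.15 (SE 0.0667, adjusted p = 1.00). The groups of SLC7A5 did not overlap there, although they did on CPM scaled by TMM, and those of the other transporters did in each of the 3 stromal comparisons, while 4.35%, 2.86% and 3.5% of all genes did not overlap. The insulin comparisons of a cell type share their libraries and are therefore not separate evidence. In the tests of the difference between the cell types in the effect of 1 and 10 ng/mL insulin, 0 of 10 were called with edgeR or DESeq2, beside 0.0% of 14195 genes each, and 0 and 1 passed without adjustment, beside 5.5% and 4.06%. The largest difference at 1 ng/mL was that of SLC7A8, 1.53 (SE 0.979), where its stromal counts were 3, 41 and 3 with vehicle and 5, 7 and 4 at 1 ng/mL. At 10 ng/mL it was that of SLC43A2, 0.78 (SE 0.278, unadjusted p = 0.0129).

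To see which genes varied with each transporter among libraries of a kind, the log2 CPM of each gene was taken relative to its mean over the libraries of the same cell type and experiment, and Pearson's r was computed over the 30 libraries for 10709 genes with a mean of at least 5 CPM. The libraries share replicate numbers, cultures and depth, so these values are a description. SLC1A4 and SLC7A5 were each other's nearest gene, with r = 0.914 (Spearman's rho 0.718). The value was 0.948 in the 6 epithelial and 0.994 in the 6 stromal libraries of the glucose experiment. In the insulin experiment it was 0.712 in the 9 stromal and -0.49 in the 9 epithelial libraries. SLC1A4 and SLC7A5 spanned 1.20- and 1.39-fold in those stromal and 1.21- and 1.34-fold in those epithelial libraries. The r of the pair was 0.795 without the 6 stromal glucose libraries. The next nearest to SLC1A4 were AARS (0.893) and MARS (0.878), the charging enzymes of alanine and methionine, and to SLC7A5 they were LARP1 (0.909) and MARS (0.888). Leaving out the 6 stromal glucose libraries gave 0.703 and 0.705 for SLC1A4 and 0.828 and 0.741 for SLC7A5. Spearman's rho over the 30 libraries was 0.571 and 0.530 for SLC1A4 and 0.815 and 0.603 for SLC7A5. The nearest to SLC3A2 were TRIB3 (0.846), SESN2 (0.839) and SARS (0.815), all 3 on the list of amino acid response genes, and without the 6 stromal glucose libraries they were at 0.787, 0.587 and 0.544. SLC7A1 had MAP2K3 (0.862), BACH1 (0.859) and DOT1L (0.853), and SLC1A5 had NOB1 (0.889), NOM1 (0.875) and ANKRD11 (0.869).

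**Figure D5:**
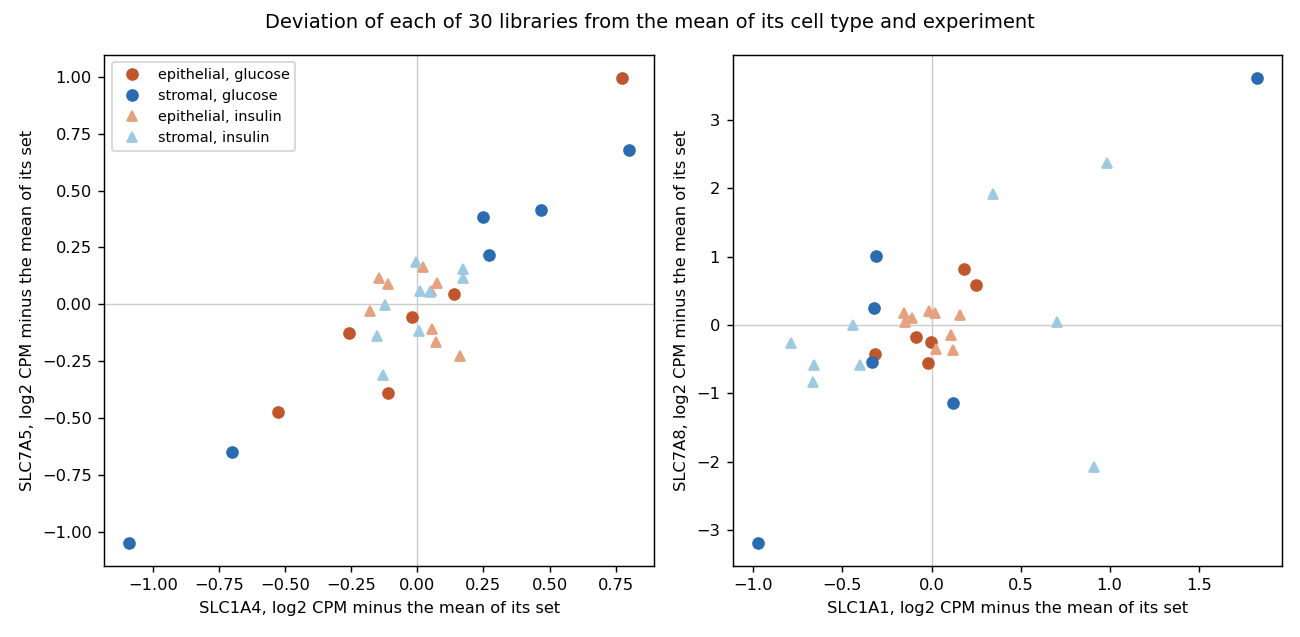
Deviation of each of the 30 libraries from the mean of its cell type and experiment, in log2 CPM, for SLC7A5 against SLC1A4 (left) and SLC7A8 against SLC1A1 (right). On the left the glucose libraries (circles) lie along a rising line with r = 0.914 over all 30 libraries, and on the right r is 0.616 over all 30 and 0.326 without the 6 stromal glucose libraries.

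The transporters higher in epithelial cells varied with other genes. SLC7A8 had SCIN (0.934), PKHD1 (0.926) and B3GNT3 (0.915) nearest, at 0.853, 0.834 and 0.816 without the stromal glucose libraries. SLC1A1 had CCDC158 (0.826) and PLS1 (0.823), and SLC7A2 had ABHD5 (0.914), HMOX1 (0.892) and SLC5A8 (0.873). Leaving out the stromal glucose libraries gave 0.676 and 0.688 for SLC1A1 and 0.928, 0.759 and 0.737 for SLC7A2. SLC7A8 and SLC1A1 had r = 0.616 with each other, or 0.326 without the stromal glucose libraries. SLC43A2 had MYO19 (0.862), TAX1BP3 (0.843) and SLC10A3 (0.836) nearest, and its r with the other 9 transporters was between -0.25 and 0.42. SLC38A1 had BTAF1 (0.952), PSMD12 (0.950) and ERLEC1 (0.943), but without the epithelial library of replicate 2 at 5 mM glucose, where SLC38A1 was at 32.5 CPM, these values were 0.742, 0.750 and 0.672. Among the 10 transporters, the 5 of SLC1A4, SLC1A5, SLC3A2, SLC7A1 and SLC7A5 had r between 0.66 and 0.914 with each other, and without the stromal glucose libraries between 0.197 and 0.795. In the 9 epithelial insulin libraries 6 of their 10 pairs had r below 0, and the values ranged from -0.69 for SLC1A4 and SLC7A1 to 0.828 for SLC1A5 and SLC7A5.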

How the data were processed

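The members and gene lists were chosen with earlier results of these data known. The authors prepared stranded libraries, trimmed and quality-filtered the single-end reads, mapped them to the Ensembl cow genome with Rsubread, kept unique alignments and counted reads per gene with featureCounts. The strand setting is not given in the sources used here, so reads of overlapping genes may be shared. The deposited values are these raw counts, not normalized, for 30 libraries of 3 replicates per group. The authors' comparison tables hold DESeq2 fold changes and p-values, which were not used; only gene names and types were taken from them.

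Counts were tested in edgeR 4.0.16 (R 4.3.3) with TMM, filterByExpr, the replicate number as a block, as the study's paired design states, and glmQLFit and glmQLFTest, on the 6 libraries of each comparison and, for a difference between cell types, on the libraries of both. P-values were adjusted over all genes tested. DESeq2 1.42.0, another normalization, no filter, no block, all libraries in 1 fit and each replicate left out were tried as alternatives. Scripts were tested on simulated data. Between treatments, the deviations of libraries with the same replicate number correlated at 0.192 to 0.836, and between cell types at 0.0361 to 0.514. The series calls replicates biological, but which animal gave which number is not given in the sources used here. Levels were described for the 10 genes in each library. Fold changes of the 10 were named in the comparisons of cell types, and in those of treatments where called, at an unadjusted p under 0.05 or the largest in size. The genes called in all 5 comparisons of cell types with the 3 largest medians in each direction, any called in a treatment, and the 3 nearest genes by Pearson's r were named from the other lists and genes, except 1 that is not reported here. Of the lists of 5 leukocyte and 5 endothelial markers, 3 and 4 were found by name.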

Additional observations from a re-analysis of the deposited data

Results flagged for a closer look

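For 3 transporters, all 3 pairs of libraries moved one way in epithelial and the other way in stromal cells under the same insulin contrast, on CPM scaled to the library total. The share of all genes that meets this rule was not computed, and the insulin contrasts share libraries, so these 3 are only listed. SLC43A2 had log2 fold changes of 0.44 in epithelial and -0.36 in stromal cells between 10 ng/mL insulin and vehicle, and the test of that difference gave 0.78 (unadjusted p = 0.0129, adjusted p = 1 in edgeR). SLC38A1 had 0.022 and -0.052 in the same contrast, a difference of 0.066 (adjusted p = 1 in the same test). On CPM scaled by TMM 2 of its 3 epithelial pairs were higher at 10 ng/mL, while SLC43A2 and SLC3A2 kept all 3 pairs in each cell type. SLC3A2 had 0.051 in epithelial and -0.058 in stromal cells between 10 and 1 ng/mL, a difference that was not tested.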

How the results depend on the processing

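Of the alternative values of log2 fold changes, 465 kept their direction and their side of the threshold, 31 were no longer called, 7 became called and 14 turned in direction, all 14 in fits that left out a replicate and for fold changes that were not called. Of the alternative counts of transporters called, 114 stayed within 1.5 times the reported count and 11 did not, and the cause was not tested. At 50 mM glucose the count of 4 was 0 without the replicate block, 2 with all libraries of the experiment in 1 fit and 0 to 7 with a replicate left out. The block on the replicate number moved no other count by over 1.5 times, and at 5 mM glucose the count was 3 with the block and 2 without it. The count at 10 ng/mL insulin was 5 to 7 with a replicate left out, instead of 8, where SLC7A1 and SLC7A5 were lost without replicate 2 and without replicate 3. At 1 ng/mL these genes were lost in the same fits, where the count was 6. For 50 against 5 mM glucose, the count of 0 was 0 to 3 in epithelial cells and 0 to 1 for the difference between the cell types with a replicate left out, and 1 in stromal cells with DESeq2. For the difference in the effect of 10 ng/mL insulin it was 0 to 1, where SLC7A8 was called without replicate 2 (-2.49, adjusted p = 0.0226 in edgeR), beside 1.11% of all genes, and was at 2.92 without replicate 1. Stromal vehicle replicate 2 and 10 ng/mL replicate 1 held 41 and 38 reads of SLC7A8, with epithelial markers at 3.46% and 3.61%. The other stromal insulin libraries held at most 7 reads, with markers at most at 0.349%. The part of the markers in these values was not tested.

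With a replicate left out, the log2 fold changes between cell types that turned in direction were, at 5 mM glucose, those of SLC1A4 (-0.17 to 0.52), SLC1A5 (-0.11 to 0.094), SLC3A2 (-0.17 to 0.36) and SLC7A5 (-0.15 to 0.47). At 50 mM they were those of SLC3A2 (-0.57 to 0.13) and SLC7A1 (-0.11 to 0.29). In the insulin groups they were those of SLC38A1 with vehicle (-0.081 to 0.23), at 1 ng/mL (-0.038 to 0.27) and at 10 ng/mL (-0.00094 to 0.27), and that of SLC1A5 at 10 ng/mL (-0.31 to 0.0056). Of the treatments, SLC38A1 in epithelial cells under glucose ranged from -0.040 to 1.12 and the difference of SLC7A8 at 1 ng/mL from -0.61 to 2.10. Of the levels, 396 alternatives stayed within the spread between replicates and 4 did not. Of the alternative correlations 59 changed by less than 0.1 and 31 by more. Leaving the stromal glucose libraries or epithelial replicate 2 at 5 mM glucose out of the correlations was chosen after seeing the data. Depth limits SLC7A8 in the stromal and SLC43A2 in the epithelial insulin libraries, which hold 0 to 41 and 14 to 27 reads of these genes.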
